A study of Homo sapiens with 6 samples.

Results

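The genes described here encode fibulins, fibrillins and olfactomedin-like proteins, which are secreted glycoproteins of the extracellular matrix. They were chosen by gene family from a table of 60671 genes, with the difference between treated and control libraries already known, so that difference is a description and carries no test. There are 10 of them, namely the fibulins EFEMP1, EFEMP2, FBLN1, FBLN2 and FBLN5, the fibrillins FBN1 and FBN2, and the olfactomedin-like genes OLFML2A, OLFML2B and OLFML3. The fit across the table kept 14377 genes that reached a TPM of 1 or more in 3 or more libraries. Of the 10 members 9 passed that filter, and FBLN1 did not.

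The study asked how rutaecarpine, an alkaloid of the medicinal fruit of Tetradium ruticarpum, affects the migration of U87 cells. U87 is an established human glioblastoma cell line that carries a loss of the CDKN2A region. In that study sequencing was used to look for further migration-related genes that respond. The control group held 3 libraries of U87 cells kept for 48 h with 0.1% DMSO, and the rutaecarpine group held 3 libraries of U87 cells kept for 48 h with 100 μM rutaecarpine in the same share of DMSO. Both groups were dosed in medium without serum. The migration assays of the study used lower doses of rutaecarpine than these libraries. Only 1 cell line, 1 dose and 1 time were sequenced, and the labels do not say whether the libraries of a group came from separate cultures, so p-values measure only the spread between these libraries, which may be technical.

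The region lost in U87 was near 0, and several glial markers were absent. CDKN2A, CDKN2B and MTAP summed to at most 0.07 TPM in any library, while of the 7 glial genes looked at, AQP4 was listed at 0 in all 6 libraries, SOX2 reached at most 0.06 TPM, S100B at most 0.25 TPM, and GFAP lay between 3.48 and 5.41 TPM. The summed level of the 7 glial genes was 6998 to 7994 TPM in control and 4450 to 5187 TPM in rutaecarpine libraries, and nearly all of it was the intermediate filament gene VIM. Within this list NES also had lower values after treatment (17.25 to 21.02 TPM in control and 12.29 to 13.61 TPM in rutaecarpine libraries), while OLIG2 had higher ones (1.48 to 1.73 and 3.07 to 4.11 TPM). PTPRC, PECAM1, EPCAM and RBFOX3, which mark leukocytes, endothelium, epithelium and neurons, summed to between 0.66 and 2.17 TPM. The 4 fibroblast-like genes COL1A1, PDGFRB, DCN and LUM summed to 364 to 421 TPM in control and 248 to 284 TPM in rutaecarpine libraries, and within this list COL1A1 was lower and LUM higher after treatment. The part of these marker lists in the results below was not tested. The aryl hydrocarbon receptor (AhR) targets CYP1B1 and TIPARP showed the treatment, with 42.8 to 84.7 and 8.08 to 15.1 TPM in control and 335 to 423 and 90.1 to 119 TPM in rutaecarpine libraries. The reference gene GAPDH lay between 9899 and 12216 TPM. Control replicate 3 differed from the other 2 controls by transcript length, as described with the fibrillins.

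Fibrillins polymerise into microfibrils, thin extension-resistant filaments that form by themselves or scaffold elastin in elastic fibres. Fibulins attach to microfibrils, elastin and basement membranes, and some of them bring the cross-linking enzymes of the lysyl oxidase family to elastin. Microfibrils also hold latent TGF-beta and bone morphogenetic proteins in the matrix. Olfactomedin-like proteins share a C-terminal olfactomedin domain and bind matrix components or growth factors.

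Promoter sequences of RefSeq on GRCh38.p14, from 250 bases before to 50 after each annotated start, were found for 9 of the 10 genes in 12 windows, and for EFEMP1 no entry was present. They are shown because rutaecarpine raised AhR target genes in these cells, and the core of the element bound by AhR is known. The core was searched as GCGTG and, on the other strand, as CACGC. The extended form was searched as TNGCGTG and CACGCNA, which contain the core. The extended form was in 0 of the 12 windows and in 1935 of 35116 windows of all genes (5.51%). The study searched that form over longer stretches upstream of coding sequences, so absence from these windows says nothing about such a search. The core was in 6 of the 12 windows, belonging to 5 genes, and in 12832 of all windows (36.5%). Windows of OLFML3, OLFML2B, EFEMP2 and FBN2 held no match to these letters. FBLN1 held a match just after its start, within chr22:45502895-45502924 on the plus strand. That stretch and the further matches of FBLN5 are not printed below. Below are 30-base stretches of GRCh38.p14 around matches, 5′ to 3′ on the strand of the gene, with the core in capitals. The first 3 belong to OLFML2A on the plus strand, at chr9:124776893-124776922, chr9:124776947-124776976 and chr9:124800691-124800720. Next come FBN1 on the minus strand at chr15:48645041-48645070, FBLN2 on the plus strand at chr3:13568492-13568521 and the match of FBLN5 farthest from its start, on the minus strand at chr14:91947869-91947898.
OLFML2A: caggtgaagggaCACGCccaaggtcccacg
OLFML2A: gtgagaggagccCACGCgcctcgccctggc
OLFML2A: ggcgagaatgaaGCGTGttttggcaatggt
FBN1: aattaactgcgcCACGCgcaggcggcgcac
FBLN2: agcgcttacaggCACGCccagaggccctca
FBLN5: gtccctggagctGCGTGggtcgtgagttca
A match says only that these letters occur there.

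In these data 7 of the 9 tested members were lower in every rutaecarpine library than in every control library, as were 14.0% of all tested genes. The members were chosen on this contrast, so nothing is read from the count. OLFML3 and EFEMP1 were lowest relative to control, at means 6.52-fold and 5.11-fold below it. OLFML2A, OLFML2B, FBLN2, FBN1 and EFEMP2 were lower by 1.45-fold to 2.43-fold. FBN2 and FBLN5 overlapped between the groups, and FBLN1 was weakly present but higher in each rutaecarpine library. In bulk libraries fewer cells of a kind and less RNA per cell cannot be told apart.

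**Figure D1:**
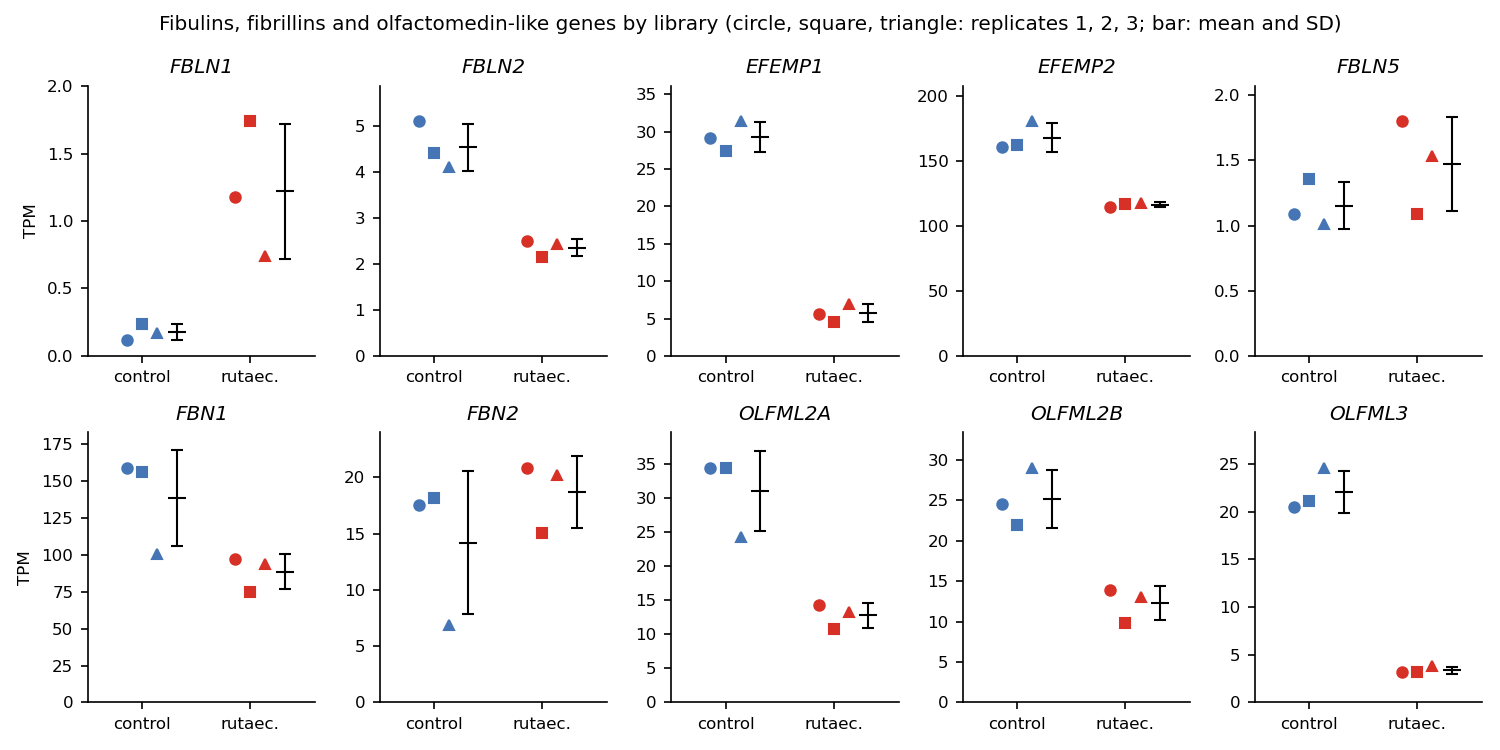
TPM of each of the 10 genes in each of the 3 control (blue) and 3 rutaecarpine (red) libraries, on axes that start at 0 and have their own scale for each gene, where each point is 1 library and the black marks are the mean and SD of the group. For OLFML3 the control points lie at 20.5 to 24.6 TPM and the rutaecarpine points at 3.15 to 3.8 TPM, while for FBN2 the points of the groups overlap.

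EFEMP1, also named fibulin-3, is a secreted protein that can bind the protease inhibitor TIMP3, and it has been studied as a factor released by gliomas. The gene (ENSG00000115380) lies at chr2:55865967-55924139 on the minus strand of GRCh38, and its transcript used for length has 11 exons and 3024 bases. Control libraries gave 29.07, 27.34 and 31.38 TPM, and rutaecarpine libraries 5.65, 4.54 and 6.99 TPM. The highest rutaecarpine value was thus well below the lowest control value. Means were 29.3 ± 2.03 and 5.73 ± 1.23 TPM (SD, n = 3 each), a difference of −2.18 ± 0.17 (SE) on the scale log2(TPM + 1).

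EFEMP2, or fibulin-4, assists lysyl oxidase in cross-linking elastin and was the most abundant member on the TPM scale in both groups. The gene (ENSG00000172638) lies at chr11:65866441-65873592 on the minus strand, with 11 exons and 2034 bases. Its TPM were 161.08, 162.7 and 180.8 in control and 114.35, 116.64 and 118.01 in rutaecarpine libraries, means 168 ± 10.9 and 116 ± 1.85. The groups did not overlap, yet the difference was only −0.53 ± 0.08 (SE) on the log2 scale. EFEMP2 shares 1213 bases with MUS81, a DNA endonuclease gene on the other strand, and whether the authors' counting used strand is not given in the sources used here. MUS81 was at 36.1 ± 2.13 TPM in control and 37.2 ± 4.27 in rutaecarpine libraries.

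FBLN1, FBLN2 and FBLN5 were the weakly expressed fibulins. FBLN2 (ENSG00000163520, chr3:13549131-13638422, plus strand, 18 exons and 4318 bases) encodes a fibulin of basement membranes and vessel walls. Its values were 5.1, 4.4 and 4.1 TPM in control and 2.49, 2.14 and 2.43 TPM in rutaecarpine libraries, all lower than in any control. On the log2 scale the difference was −0.72 ± 0.16 (SE). FBLN5 (ENSG00000140092, chr14:91869412-91947987, minus strand, 11 exons and 2123 bases) encodes an elastin-binding fibulin needed for elastic fibres. It gave 1.09, 1.36 and 1.01 TPM in control and 1.8, 1.09 and 1.53 TPM in rutaecarpine libraries, with overlapping groups. FBLN1 (ENSG00000077942, chr22:45502238-45601135, plus strand, 17 exons and 2896 bases) encodes a fibulin found with fibronectin and basement membranes. Its TPM were 0.12, 0.24 and 0.17 in control and 1.18, 1.74 and 0.74 in rutaecarpine libraries. The groups did not overlap, but with only 2 libraries at a TPM of 1 or more the gene was left out of the fit, and the reads behind such low values are unknown.

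FBN1, the main structural protein of microfibrils in adult tissues and the gene altered in Marfan syndrome, was the most abundant fibrillin. The gene (ENSG00000166147) lies at chr15:48408306-48645849 on the minus strand and has a long transcript of 66 exons and 11756 bases. It gave 159.03, 155.79 and 100.8 TPM in control and 97.21, 74.99 and 93.5 TPM in rutaecarpine libraries. The groups did not overlap, but the value of control replicate 3 was close to the highest rutaecarpine value. Means were 138 ± 32.7 and 88.6 ± 11.9 TPM, and the difference was −0.62 ± 0.20 (SE) on the log2 scale and −0.83 without control replicate 3.

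FBN2, a fibrillin used mostly during development, did not share this direction. The gene (ENSG00000138829) lies at chr5:128257909-128659185 on the minus strand and has 71 exons and 11132 bases. Control libraries gave 17.57, 18.14 and 6.84 TPM and rutaecarpine libraries 20.85, 15.04 and 20.24 TPM. Control replicate 3 was below all other libraries, and the other 2 controls lay within the range of the rutaecarpine group. The difference of 0.47 ± 0.35 (SE) on the log2 scale became 0.05 without that library.

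Long transcripts as a class were low in control replicate 3. Against the mean of the other controls, its median log2(TPM + 1) differed by 0.06 over the 4511 tested genes with transcripts up to 2000 bases and by −0.22 over the 5225 genes of up to 4000. The shift was −0.58 over the 3631 genes of up to 8000 bases and −0.76 over the 914 longer ones. Rutaecarpine replicate 2 had the same order with smaller shifts, 0.02, −0.10, −0.23 and −0.34. In control replicate 3, FBN1 was shifted by −0.64, FBN2 by −1.27 and OLFML2A by −0.49, while EFEMP1 (0.15), EFEMP2 (0.16), OLFML3 (0.23) and OLFML2B (0.31) were shifted the other way. Rutaecarpine minus control without this library was −0.83 for FBN1, 0.05 for FBN2 and −1.37 for OLFML2A, while over the longest class of genes the median difference went from 0.19 to −0.06.

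**Figure D2:**
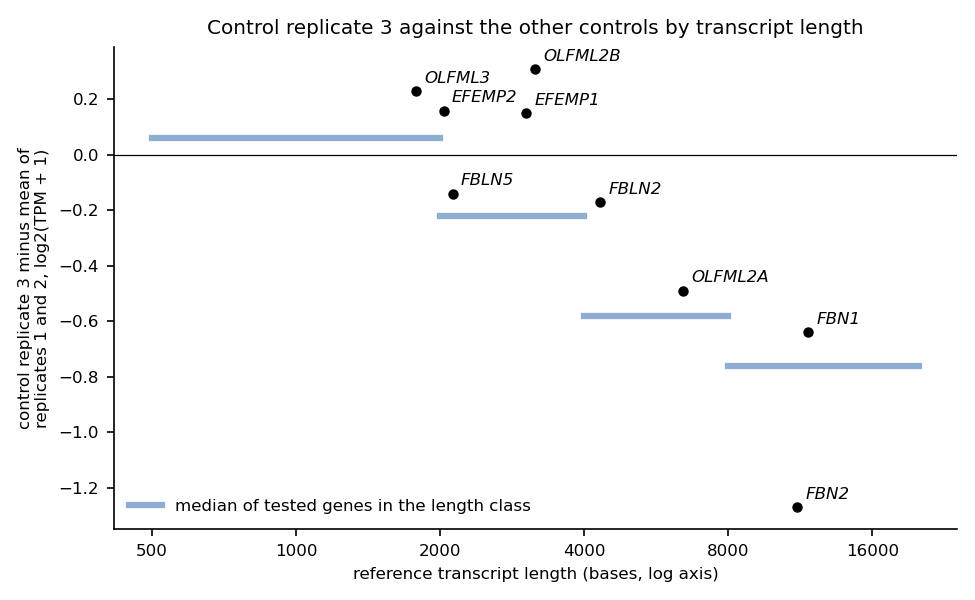
Shift of control replicate 3 from the mean of the other controls in log2(TPM + 1) against transcript length in bases on a log axis; points are the 9 tested members and horizontal bars the medians of 4 length classes of all tested genes, the outer classes drawn to the ends of the axis only. The class medians go from 0.06 for the shortest to −0.76 for the longest transcripts, and FBN2 lies lowest at −1.27.

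The olfactomedin-like genes were lower as a group, and their summed level was 78.3 ± 0.98 TPM in control and 28.5 ± 4.06 TPM in rutaecarpine libraries. OLFML3, a secreted protein that binds bone morphogenetic protein signalling components, had the largest difference of the 9 tested members on the scale log2(TPM + 1). The gene (ENSG00000116774) lies at chr1:113979391-114035572 on the plus strand, with 3 exons and 1780 bases. It gave 20.48, 21.13 and 24.6 TPM in control and 3.2, 3.15 and 3.8 TPM in rutaecarpine libraries. Means were 22.1 ± 2.21 and 3.38 ± 0.36 TPM, and the difference of −2.39 ± 0.15 (SE) was the sixth lowest of the 14377 genes tested.

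OLFML2A and OLFML2B, the photomedins, bind heparin and chondroitin sulphate. OLFML2A (ENSG00000185585, chr9:124777158-124814885, plus strand, 8 exons and 6425 bases) gave 34.46, 34.47 and 24.23 TPM in control and 14.34, 10.79 and 13.21 TPM in rutaecarpine libraries. The groups did not overlap, and the difference was −1.21 ± 0.18 (SE). OLFML2B (ENSG00000162745, chr1:161983192-162023854, minus strand, 8 exons and 3160 bases) gave 24.5, 22.02 and 29.05 TPM in control and 13.93, 9.89 and 13.03 TPM in rutaecarpine libraries. It was lower in every treated library, with a difference of −0.98 ± 0.17 (SE). These 2 genes lie on either side of the threshold of the call rule, which asks for a limma p, adjusted by Benjamini-Hochberg, of 0.05 or less and for an absolute log2 difference above 1.

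OLFML3, EFEMP1 and OLFML2A met that rule in the lower direction and 0 members met it in the higher direction. Among all tested genes 216 met it lower (1.5%) and 289 higher (2.01%). Median centring of the libraries changed these counts to 295 lower and 251 higher. By adjusted p alone 6 members were lower, adding OLFML2B, FBLN2 and EFEMP2, and 0 higher, beside 673 (4.68%) and 662 (4.6%) of all tested genes. Of the 9 tested members, 7 had lower groups without overlap, beside 2012 such genes (14.0%), and 0 had higher ones, beside 2771 (19.3%). FBLN1, which was not tested, was higher without overlap. The median difference of the 9 tested members was −0.72, and that of all tested genes 0.08. The members were chosen with this contrast known, so their counts are a description and carry no test.

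**Figure D3:**
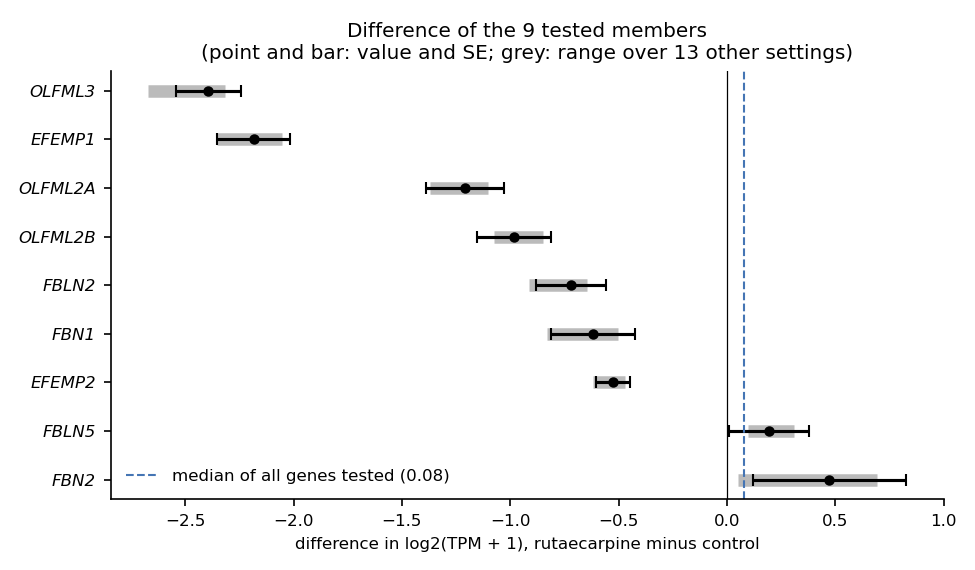
Difference between rutaecarpine and control libraries in log2(TPM + 1) for the 9 tested members, with the SE as error bar, the range over 13 other settings in grey and the median of all tested genes (0.08) as a dashed line. OLFML3 at −2.39 and EFEMP1 at −2.18 lie far from the others, and FBN2 at 0.47 and FBLN5 at 0.19 are on the other side of 0.

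Because the members did not move by equal amounts, their order and their proportions within a library differed between the groups. In control libraries the order by mean TPM was EFEMP2, FBN1, OLFML2A, EFEMP1, OLFML2B, OLFML3, FBN2, FBLN2, FBLN5 and FBLN1, and the values of each neighbouring pair from OLFML2A to OLFML3 overlapped. In rutaecarpine libraries it was EFEMP2, FBN1, FBN2, OLFML2A, OLFML2B, EFEMP1, OLFML3, FBLN2, FBLN5 and FBLN1, with overlap only between OLFML2A and OLFML2B and between FBLN5 and FBLN1. FBN2 thus stood below all 3 olfactomedin-like genes in control libraries and above them after treatment. The members together summed to 434 ± 27.3 TPM in control and 263 ± 19.8 TPM in rutaecarpine libraries.

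The ratio of EFEMP2 to EFEMP1 was 5.54, 5.95 and 5.76 in control and 20.2, 25.7 and 16.9 in rutaecarpine libraries. EFEMP2 made up 82.7% ± 0.63 of fibulin TPM in control and 91.5% ± 0.81 in rutaecarpine libraries, and EFEMP1 14.4% and 4.5%. OLFML2B was about level with OLFML3 in control libraries, with ratios of 1.2, 1.04 and 1.18, and 4.35, 3.14 and 3.43 in rutaecarpine libraries. The ratio of FBN1 to FBN2 was 9.05, 8.59 and 14.7 in control and 4.66, 4.99 and 4.62 in rutaecarpine libraries, so the groups did not overlap either with or without the high value of control replicate 3. For OLFML2A over OLFML2B the groups overlapped, at 1.41, 1.57 and 0.83 in control and 1.03, 1.09 and 1.01 in rutaecarpine libraries.

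**Figure D4:**
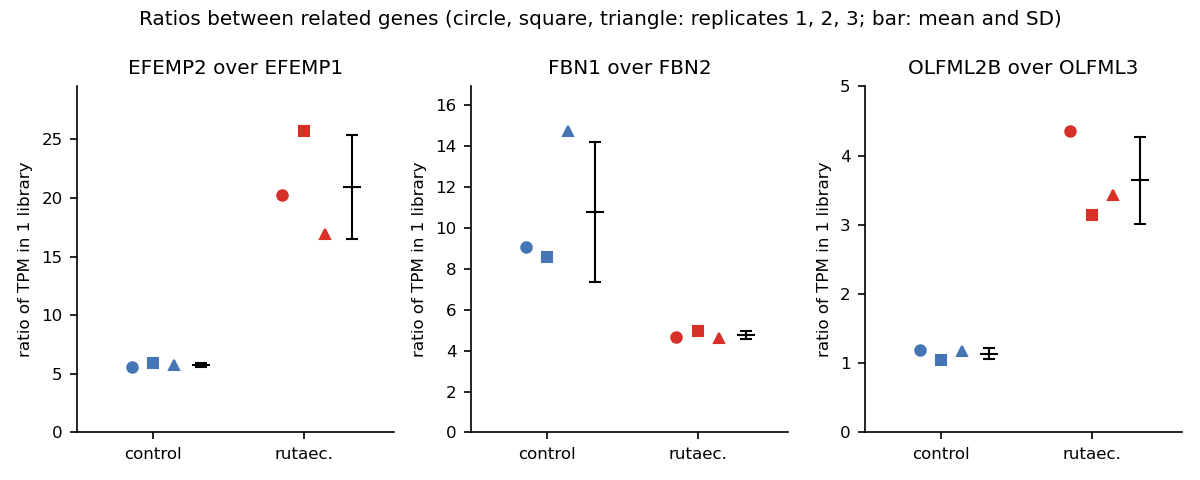
Ratio of TPM between 2 members within each library for 3 pairs, on axes that start at 0, with control libraries in blue, rutaecarpine libraries in red and the mean and SD in black. The EFEMP2 to EFEMP1 ratio lies at 5.54 to 5.95 in control and 16.9 to 25.7 in rutaecarpine libraries, and the FBN1 to FBN2 ratio of control replicate 3 lies highest, at 14.7.

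Other genes of the same families were mostly not expressed. Of 11 looked at, 2 passed the filter, the hemicentins HMCN1 and HMCN2, which are large fibulin-related matrix proteins. The highest TPM of the other 9 in any library was 1.21, and the highest mean among them was that of FBLN7, at 0.68 in control and 0.66 in rutaecarpine libraries. HMCN1 gave 5.41, 5.3 and 3.73 TPM in control and 2.6, 1.36 and 2.65 TPM in rutaecarpine libraries, with no overlap, and a limma p of 0.0706 after Benjamini-Hochberg adjustment. It met the call rule without control replicate 3. HMCN2 was at 4.17 ± 0.34 and 3.59 ± 0.24 TPM, with overlapping groups and a limma adjusted p of 0.541.

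The proteins that build and cross-link elastic fibres and microfibrils were followed in a list of 31 genes, of which 21 were tested. Of these 3 fell by the call rule and 0 rose, beside 1.5% and 2.01% of all tested genes. By adjusted p alone the counts were 4 and 1, beside 4.68% and 4.6%, and 9 had lower and 5 higher groups without overlap, beside 14.0% and 19.3%. The list's median difference was −0.11. Like the other lists, it was chosen with earlier results of these data known, so its counts and adjusted p are a description. The genes that fell were LOXL1, LOXL4 and MFAP4. The elastin gene ELN was among the 10 not tested, whose highest TPM in any library was 1.04.

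LOXL1, a lysyl oxidase needed for elastic fibre renewal, was the most abundant of the 3, with 567.52, 570.63 and 570.34 TPM in control and 187.48, 148.21 and 136.11 TPM in rutaecarpine libraries. The difference was −1.86 ± 0.12 (SE) with an adjusted p of 0.000434 by limma with Benjamini-Hochberg adjustment. LOXL4, a further lysyl oxidase, gave 16.59, 16.7 and 11.92 TPM in control and 3.46, 3.46 and 3.51 TPM in rutaecarpine libraries (−1.83 ± 0.18, limma adjusted p of 0.00149). MFAP4, a microfibril-associated glycoprotein that binds elastin and integrins, fell from 167 ± 22.1 to 55.8 ± 6.46 TPM (−1.56 ± 0.13, limma adjusted p of 0.000905). All 3 met the call rule in each of the 13 alternative settings that keep it. An exact permutation test of 3 against 3 libraries cannot give a p under 0.1.

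LTBP4, which brings latent TGF-beta and fibulins together, passed by adjusted p alone. Its TPM were 94.5 ± 2.57 in control and 64.4 ± 4.79 in rutaecarpine libraries (limma adjusted p of 0.0106). TIMP3, the matrix-bound protease inhibitor that EFEMP1 can bind, also passed by adjusted p alone, at 143 ± 22.4 and 220 ± 17.9 TPM (limma adjusted p of 0.0294). The largest upward differences of the list, ADAMTS6 and VCAN, did not pass, though their groups did not overlap. ADAMTS6 was at 3.6 ± 2.05 and 10.3 ± 3.46 TPM (limma adjusted p of 0.0951). VCAN was at 36.35 ± 13.9 and 71.5 ± 11.1 TPM (limma adjusted p of 0.0864). Both have long transcripts (7311 and 12625 bases), the kind that was low in control replicate 3. In that library ADAMTS6 was at 1.28 TPM beside 4.34 and 5.17 in the other controls, and VCAN at 20.46 beside 46.12 and 42.48. It was also the lowest control library for TIMP3, at 117 TPM beside 156 and 157. Of the other lysyl oxidases and LTBPs, LOXL2 was the most abundant gene of the list, at 809 ± 86.3 TPM in control and 746 ± 51.1 TPM in rutaecarpine libraries, with a limma adjusted p of 0.539. LTBP3 was at 269 ± 10.7 and 299 ± 7.78 TPM (limma adjusted p of 0.233).

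Growth factors and receptors that bind these proteins made a list of 21 genes, of which 13 were tested. By the call rule 0 fell and 2 rose, beside 1.5% and 2.01% of all tested genes, and by adjusted p alone the counts were 1 and 2, beside 4.68% and 4.6%. Without overlap, 4 had lower and 3 higher groups, beside 14.0% and 19.3%, and the median difference was 0.00. This list too was chosen with earlier results of these data known. The integrin subunits ITGB8 and ITGB3, whose dimers with alpha-V bind latent TGF-beta or the RGD sites of fibrillin and fibulin, were the 2 that rose.

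ITGB8 was at 3.66 ± 1.64 TPM in control and 10.6 ± 1.04 TPM in rutaecarpine libraries (1.39 ± 0.30, limma adjusted p of 0.0318), and ITGB3 at 29.9 ± 9.81 and 62.8 ± 10.9 TPM (1.09 ± 0.27, limma adjusted p of 0.0487). Among the 13 settings that keep the call rule ITGB8 met it in 7 and ITGB3 in 1. Without control replicate 3 the differences were 1.04 and 0.79. TGFB3, a ligand held by microfibrils, passed by adjusted p alone, at 4.69 ± 0.51 TPM in control and 2.06 ± 0.18 TPM in rutaecarpine libraries (limma adjusted p of 0.0175). ITGA5, the alpha subunit of the fibronectin receptor, was at 537 ± 24.7 and 685 ± 76.2 TPM (limma adjusted p of 0.0818), and its partner ITGB1, which was low in control replicate 3 (310 TPM beside 651 and 636), at 532 ± 193 and 575 ± 24.0 TPM (limma adjusted p of 0.703). TGFB1, the most abundant TGF-beta ligand here, was at 108 ± 6.53 and 94.8 ± 4.41 TPM (limma adjusted p of 0.224).

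**Figure D5:**
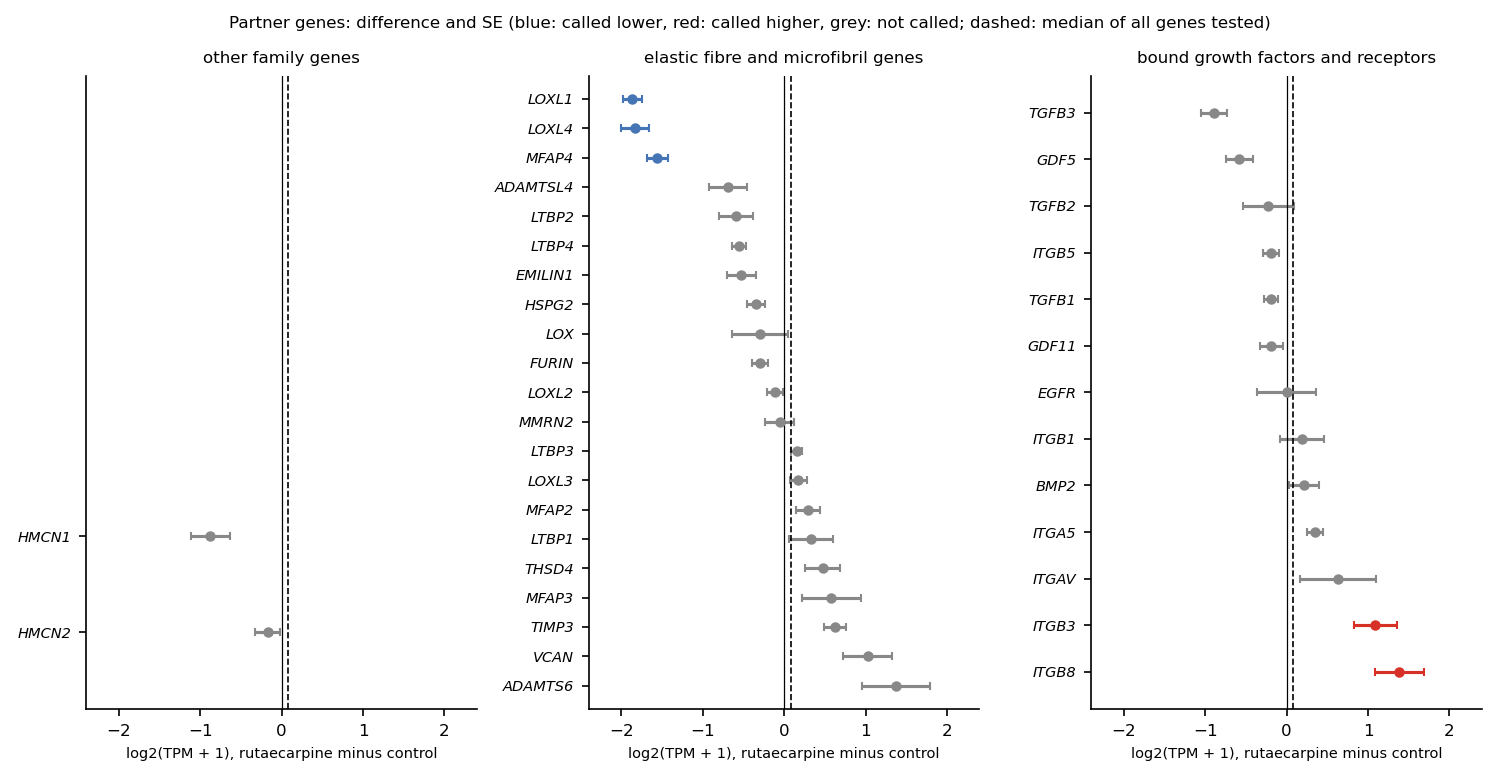
Difference between rutaecarpine and control libraries in log2(TPM + 1) of the tested genes of the 3 other lists, with the SE as error bar, the median of all tested genes dashed, and genes that met the call rule in blue (lower) or red (higher). LOXL1, LOXL4 and MFAP4 lie between −1.86 and −1.56, and ITGB3 and ITGB8 above 1.

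The genes whose pattern over the 6 libraries was most like that of EFEMP1, by Pearson's r on log2(TPM + 1) among 10505 genes with a mean TPM of at least 5, were ADAM15 (r = 0.9995), EPHA2 (0.9978) and LINC01116 (0.9964). For OLFML3 they were ACTL8 (0.9992), GAS6 (0.9985) and TSPAN17 (0.9971). EFEMP1 and OLFML3 had r = 0.995 with each other. The 6 points form 2 groups of 3, so r mostly follows the difference between the groups, and an r of at least 0.95 was found for 388 genes with EFEMP1 (3.69%) and 415 with OLFML3 (3.95%). TSPAN17 shows how little the size of a change enters r, as it went from 48.7 ± 0.69 to 42.7 ± 0.37 TPM.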

How the data were processed

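RNA of U87 cells was sequenced on an Illumina instrument by a company, and the values the authors deposited are TPM from RSEM, 1 column per library, with all 6 columns matched to a sample. The submitters' processing notes name GRCh38.p13, DESeq2 and edgeR, and the aligner and annotation are not given in the sources used here. TPM keep no read counts, so depth and counting error are unknown (totals of 990889 to 995734 TPM per library) and no count test was used.

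The scale was log2(TPM + 1). The 14377 of 60671 genes that reached a TPM of 1 in 3 or more libraries were compared by limma 3.58.1 in R 4.3.3, with a linear model, a mean-variance trend, two-sided tests and Benjamini-Hochberg adjustment. The call rule was an adjusted p not above 0.05 with an absolute log2 difference above 1. A fold change on this scale understates the change of weakly expressed genes. The fit was tested on simulated data, which held no shift by transcript length such as that of control replicate 3. Members and lists were chosen with earlier results of these data known. Of each list, the genes called and the 3 of highest mean TPM are named, and for the members EFEMP1 and OLFML3 the 3 genes of highest r. LTBP4, TIMP3, TGFB3, ADAMTS6 and VCAN were picked once values had been seen, beyond that rule. Alternatives were median centring, no trend, other filters, a pseudocount of 0.1, no threshold on the fold change, the replicate number as a block, leaving out each library, and, chosen after seeing the data, removal of a spline trend on transcript length (5 degrees of freedom, 14281 genes). Lengths and positions came from GENCODE release 29 on GRCh38, promoters from RefSeq on GRCh38.p14. Tables and figures used Python 3.11.15, pandas 2.3.3, numpy 2.4.6 and matplotlib 3.10.9.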

Additional observations from a re-analysis of the deposited data

How the results depend on the processing

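Of the log2 differences of the tested members under the alternatives, 122 of 126 moved by less than the spread between replicates. The exceptions were EFEMP2 with median centring (−0.62), FBLN2 with a pseudocount of 0.1 (−0.91) and with the length trend removed (−0.84), and OLFML3 with that pseudocount (−2.67). Median centring moves all genes by the same amount, and EFEMP2 had the smallest SE of the tested members (0.08). Settings that change only the filter, the mean-variance trend, the replicate block or the threshold cannot move a difference of group means. Their comparisons were thus unmoved in advance and say nothing about stability. EFEMP1, OLFML3 and OLFML2A met the call rule in all 13 settings that keep it, and OLFML2B in 5, with differences between −1.08 and −0.85. FBN2 ranged from 0.05 to 0.69, the former without control replicate 3. Without a threshold on the fold change 6 members were lower.

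Over all genes, 289 rose and 216 fell. Leaving out 1 library gave 164 to 280 that rose and 142 to 305 that fell, and without the threshold on the fold change 662 and 673. Lower calls outnumbered higher ones with median centring (251 rose, 295 fell), without control replicate 3 (280 and 305) and with the length trend removed (258 and 281), where the median difference of all genes was −0.01, −0.01 and 0.01 in place of 0.08. Correlations of same-numbered residuals between the groups were 0.12, −0.27 and −0.22. The highest of all pairs was 0.39, for control replicate 3 with rutaecarpine replicate 2, both low for long transcripts. With that shift in the residuals, the correlations cannot show whether the libraries were paired. With the replicate block 125 genes fell, 0 bound growth factors and receptors rose, and LOXL1, LOXL4 and MFAP4 still met the rule at limma adjusted p of up to 0.0231.

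The other family genes gave 0 to 1 gene that fell when a library was left out and 1 with the length trend removed, HMCN1 in both cases. Elastic fibre genes that rose were 1 with median centring and 1 with the length trend removed (ADAMTS6), and 1 without the threshold (TIMP3). Bound growth factors and receptors that fell were 1 with a pseudocount of 0.1 and 1 without the threshold (TGFB3). Of those that rose, 1 remained in count with median centring, without the trend, with the pseudocount of 0.1 and with the length trend removed, 0 without the filter, and 0 to 1 when a library was left out. The causes were not tested. With depth unknown, no counting error can be given for low values such as those of FBLN1 and FBLN5.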
